A study of Mus musculus with 6 samples.

Results

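The 35 genes described here mark T cells and their subsets in tumor tissue. They were chosen by symbol for what they are known to encode, among the 26167 genes of the deposited tables, and all 35 were found and had enough reads to be tested. They cover the T cell receptor (TCR) complex, coreceptors, surface receptors, proximal signaling molecules, lineage transcription factors, regulatory T (Treg) cell genes, cytokine receptors, and homing receptors, whereas effector molecules and checkpoint receptors were left out. The tissue was Hepa1-6 tumor (Hep1-6 in the sample labels), grown from a mouse hepatoma cell line injected under the skin of female C57BL/6J mice aged 6 to 8 weeks. Control tumors, labeled as control without further detail, were numbered 1, 3, and 4 in the labels. Tumors treated with sorafenib (Sora), an inhibitor of several kinases, were numbered 2, 3, and 4 and came from mice that were given 10 mg/kg into the peritoneum at days 9, 11, 13, and 15. Each group held 3 tumors with 1 library each, of 31073830 to 36205814 counted reads. The counts of Sora-treated tumor 4 were worked back from its deposited FPKM values, so each value given for this tumor rests on that step. The labels do not say whether the tumors of a group came from separate mice, so p-values measure the spread between these samples. Because whole tumor tissue was sequenced, fewer T cells and less of a given RNA per T cell cannot be told apart.

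T cells recognize peptides bound to MHC molecules with the TCR, whose signaling depends on the CD3 chains. CD4 or CD8 binds the MHC molecule next to the TCR and brings the kinase LCK, which phosphorylates the CD3 chains so that the kinase ZAP70 can bind and phosphorylate the scaffold LAT. In tumors, CD8+ T cells can kill cancer cells, CD4+ helper cells direct other leukocytes, and Treg cells, defined by the transcription factor FOXP3, restrain both.

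The genes of the CD3 chains are neighbors, and the upstream sequences of the 3 clustered CD3 genes and of Cd8a are shown because these genes define the T cell signal on which the comparison rests. Each is the 250 bases before the start listed first for the gene in RefSeq (GRCm38.p6), written 5′ to 3′ on the strand of the gene. The windows are chr9:44980432-44980681 (minus strand, Cd3g), chr9:44981536-44981785 (plus strand, Cd3d), chr9:45009612-45009861 (minus strand, Cd3e), and chr6:71373177-71373426 (plus strand, Cd8a). Capitals mark matches, on either strand, to short core motifs. The letters searched were AGGAAG for factors of the ETS family and TGTGGT for those of the RUNX family. The letters AGATAA were searched for factors of the GATA family and CTTTGA for those of the TCF and LEF family.
Cd3g: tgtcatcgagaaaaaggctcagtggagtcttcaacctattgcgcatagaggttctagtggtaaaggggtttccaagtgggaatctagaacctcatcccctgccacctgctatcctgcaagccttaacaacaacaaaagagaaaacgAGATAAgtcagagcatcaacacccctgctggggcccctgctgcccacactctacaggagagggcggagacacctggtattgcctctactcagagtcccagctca
Cd3d: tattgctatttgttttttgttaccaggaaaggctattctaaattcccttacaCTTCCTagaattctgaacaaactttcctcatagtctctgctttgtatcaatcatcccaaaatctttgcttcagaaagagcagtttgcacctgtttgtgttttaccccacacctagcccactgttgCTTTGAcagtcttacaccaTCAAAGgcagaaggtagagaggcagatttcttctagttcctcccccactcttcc
Cd3e: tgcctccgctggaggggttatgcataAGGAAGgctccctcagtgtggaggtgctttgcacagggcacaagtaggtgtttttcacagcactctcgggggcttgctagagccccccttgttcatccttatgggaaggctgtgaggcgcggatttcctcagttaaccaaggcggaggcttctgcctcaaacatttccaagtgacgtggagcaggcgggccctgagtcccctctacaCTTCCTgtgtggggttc
Cd8a: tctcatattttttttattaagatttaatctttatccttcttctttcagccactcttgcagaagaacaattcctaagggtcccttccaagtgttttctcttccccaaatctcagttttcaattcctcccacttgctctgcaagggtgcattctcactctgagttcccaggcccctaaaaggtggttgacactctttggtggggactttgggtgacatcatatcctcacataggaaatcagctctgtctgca
Cd3g and Cd3d point away from each other, with 854 bases between the printed windows. The Cd3d window held 1 ETS and 2 TCF/LEF matches, the Cd3e window held 2 ETS matches, the Cd3g window held 1 GATA match, and none of these letters was found in the Cd8a window. Of the 22 genes of the list with an entry, 11 (50%) had the ETS letters, against 29.2% of the first-listed windows of 27025 genes. The RUNX letters were found in 3 (13.6%, against 14.2%), the GATA letters in 1 (4.55%, against 10.3%), and the TCF/LEF letters in 4 (18.2%, against 14%). A match describes the letters and does not show binding.

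Most T cell genes had a lower mean in Sora-treated tumors, but few of them passed a test across all genes. The log2 fold change, Sora-treated against control, was under 0 for 32 of the 35 genes (91.4%, against 50.1% of all genes tested), with a median of -0.32 against -0.00037 over all 16513 genes tested. In edgeR's quasi-likelihood test, Cd8b1 and Cd6 fell (adjusted p under 0.05 by the Benjamini-Hochberg method), which is 5.71% of the list against a background of 1.34% of all genes called lower. None was called higher (0 of 35, also 0 at an unadjusted p under 0.05 and 0 in DESeq2), against a background of 1.94%. At an unadjusted p under 0.05, 18 genes of the list were lower, against 8.69% of all genes (8.53% were higher). In 18 genes (51.4%), every Sora-treated tumor lay below every control tumor, against a background of 11.6%, and in none did every Sora-treated tumor lie above, against 10.6%. These genes share tumors and, in large part, cells, so their counts are not independent of each other. In this edgeR fit, no gene of the list was lower by as much as 2-fold. DESeq2, with a background of 3.72% called lower and 4% called higher, called 7 genes lower, adding Cd247, Cd4, Lck, Themis, and Tox.

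**Figure D1:**
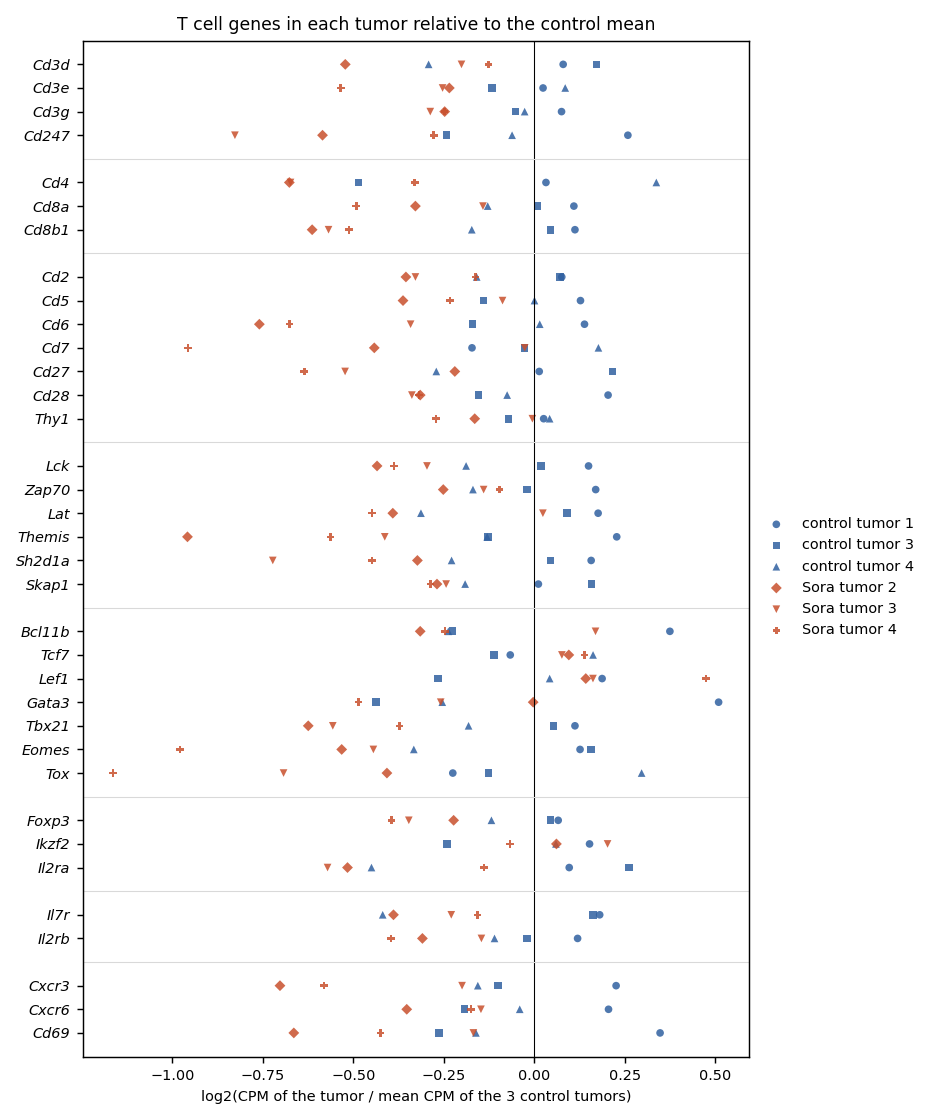
Level of each of the 35 T cell genes in each tumor, as the log2 of its CPM over the mean CPM of the 3 control tumors (horizontal axis), with genes on the vertical axis grouped by role. Blue points are control and red points are Sora-treated tumors, and red points lie left of all blue points in 18 genes.

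The highest level of most genes lay in a control tumor and the lowest in a Sora-treated tumor. CPM scales the reads of a gene to the library total, with TMM factors. Control tumor 1 had the highest CPM of 22 of the 35 genes, and a control tumor was highest in 33. The lowest CPM lay in Sora-treated tumor 2 for 14 genes, in Sora-treated tumor 4 for 12, and in Sora-treated tumor 3 for 5. Relative to the control mean, control tumors 1, 3, and 4 had median log2 CPM ratios of 0.13, -0.05, and -0.13 over the list, whereas Sora-treated tumors 2, 3, and 4 had -0.35, -0.25, and -0.37. The summed CPM of 7 keratinocyte genes was 1007 in control tumor 1 and 903 in Sora-treated tumor 2, against 292 to 638 in the other tumors, so keratinocyte RNA was high both in the tumor highest for most T cell genes and in the tumor lowest for the most. Its part in the results was not tested.

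Of the TCR complex, 3 of the 4 genes lay lower in every Sora-treated tumor, against the 11.6% of all genes tested. Cd3e, whose product pairs with the CD3 gamma or delta chain, measured 29.5, 26.8, and 30.8 CPM in control tumors 1, 3, and 4 and 24.7, 24.4, and 20.03 CPM in Sora-treated tumors 2, 3, and 4. Cd3g, for the gamma chain, measured 40.7, 37.3, and 37.9 CPM in control and 32.6, 31.7, and 32.6 CPM in Sora-treated tumors. In both genes the groups were separate and the log2 fold changes were similar (-0.33, with a standard error, SE, of 0.10, and -0.26, SE 0.08), yet neither passed the threshold (edgeR, adjusted p = 0.11 and 0.097). Cd247 encodes the zeta chain, which carries most of the phosphorylation sites of the complex. Its CPM was 17.4, 12.3, and 13.9 in the control group and 9.68, 8.19, and 11.98 in the treated group (log2 fold change -0.55, edgeR, adjusted p = 0.11), with control tumor 3 and Sora-treated tumor 4 close together. Cd3d overlapped between the groups, since control tumor 4 (16.6 CPM) lay below Sora-treated tumors 3 and 4 (17.7 and 18.6 CPM).

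Among the coreceptors, Cd8b1, the beta chain of the CD8 heterodimer that cytotoxic T cells carry, had the smallest p of the list. It measured 31.4, 30.01, and 25.8 CPM in control tumors 1, 3, and 4 and 19.01, 19.6, and 20.4 CPM in Sora-treated tumors 2, 3, and 4. It fell from 29.1 ± 2.93 to 19.7 ± 0.694 CPM (SD, n = 3), which is -0.56 on the log2 scale (SE 0.10, edgeR, adjusted p = 0.018). All control tumors stood well clear of the treated tumors. The SD of the Sora-treated tumors lay below the counting error of 0.776 CPM, as it did in 5 genes of the list (Cd3g, Cd8b1, Cd28, Skap1, and Foxp3). The call was lost without control tumor 1 (adjusted p = 0.06), Sora-treated tumor 2 (0.069), or Sora-treated tumor 4 (0.089), in edgeR's test, at log2 fold changes of -0.50, -0.54, and -0.59. Cd8a, the alpha chain, is also carried by a subset of dendritic cells, and measured 71.7, 66.9, and 60.8 CPM in control and 52.9, 60.2, and 47.2 CPM in Sora-treated tumors (log2 fold change -0.31, edgeR, adjusted p = 0.12). Control tumor 4 and Sora-treated tumor 3 were nearly equal. Cd4, the coreceptor of helper and Treg cells, spread most among control tumors, at 24.1, 16.8, and 29.8 CPM, against 14.8, 14.8, and 18.8 CPM in Sora-treated tumors. Its log2 fold change was close to that of Cd8b1 (-0.55, SE 0.18), but Sora-treated tumor 4 lay above control tumor 3 and the adjusted p was 0.14 (edgeR). Its log2 fold change was -0.74 without control tumor 3, where it was called lower (edgeR, adjusted p = 0.033), and -0.35 without control tumor 4 (edgeR, adjusted p = 0.39).

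The surface receptors of T cells, which mediate adhesion and costimulation, all had a log2 fold change under 0, from -0.58 to -0.14. Cd6, a scavenger receptor family protein that binds ALCAM and tunes TCR signaling, measured 23.9, 19.3, and 21.9 CPM in control and 12.8, 17.1, and 13.6 CPM in Sora-treated tumors 2, 3, and 4. It fell from 21.7 ± 2.31 to 14.5 ± 2.30 CPM (SD, n = 3), which is -0.58 on the log2 scale (SE 0.13, edgeR, adjusted p = 0.039). The treated tumor nearest to the control tumors was Sora-treated tumor 3, and without it the log2 fold change was -0.72 (edgeR, adjusted p = 0.009). The call was lost without control tumor 1 (0.13), control tumor 4 (0.11), Sora-treated tumor 2 (0.14), or Sora-treated tumor 4 (0.18), in edgeR's test. Cd5, the close relative of Cd6 that also restrains TCR signaling, overlapped between the groups (log2 fold change -0.22, edgeR, adjusted p = 0.41).
Cd28, the receptor for CD80 and CD86 that gives the main costimulatory signal, measured 18.7, 14.6, and 15.4 CPM in control and 13.04, 12.8, and 13.004 CPM in Sora-treated tumors (log2 fold change -0.32, edgeR, adjusted p = 0.18). Cd2, which binds CD48 in mice, measured 19.9, 19.8, and 16.9 CPM in control and 14.8, 15.03, and 16.9 CPM in Sora-treated tumors (log2 fold change -0.28, edgeR, adjusted p = 0.21). In both genes the groups were separate, in Cd2 by very little between control tumor 4 (16.905 CPM) and Sora-treated tumor 4 (16.866 CPM). Cd7 and Cd27 overlapped, at log2 fold changes of -0.43 and -0.45. Thy1, which fibroblasts and other stromal cells can express as well as T cells, differed least (log2 fold change -0.14, SE 0.08), from 209 ± 8.77 to 189 ± 17.7 CPM (SD, n = 3).

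All 6 proximal signaling genes had a log2 fold change under 0 (50.1% of all genes did), and 4 had separate, lower groups (11.6% of all genes). Lck, the kinase that starts TCR signaling, measured 43.4, 39.6, and 34.3 CPM in control and 28.9, 31.9, and 29.9 CPM in Sora-treated tumors, at -0.37 on the log2 scale (SE 0.10, edgeR, adjusted p = 0.065). Themis, a T cell lineage protein that modulates TCR signaling in thymocytes, measured 17.6, 13.7, and 13.7 CPM in control and 7.73, 11.3, and 10.2 CPM in Sora-treated tumors. Its log2 fold change of -0.63 (SE 0.16) exceeded that of Cd8b1, at an adjusted p of 0.06 (edgeR). Every treated tumor was below every control tumor for Lck and for Themis.
Sh2d1a encodes SAP, an adaptor of SLAM family receptors, and measured 4.55, 4.20, and 3.48 CPM in control and 3.26, 2.47, and 2.99 CPM in Sora-treated tumors (log2 fold change -0.49, edgeR, adjusted p = 0.29). Skap1, an adaptor that links the TCR to integrins, measured 7.57, 8.38, and 6.58 CPM in control and 6.23, 6.34, and 6.16 CPM in Sora-treated tumors (log2 fold change -0.27, edgeR, adjusted p = 0.43). Both had separate groups, with control tumor 4 the closest to the treated tumors. Zap70 and Lat overlapped, at log2 fold changes of -0.16 and -0.25.

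**Figure D2:**
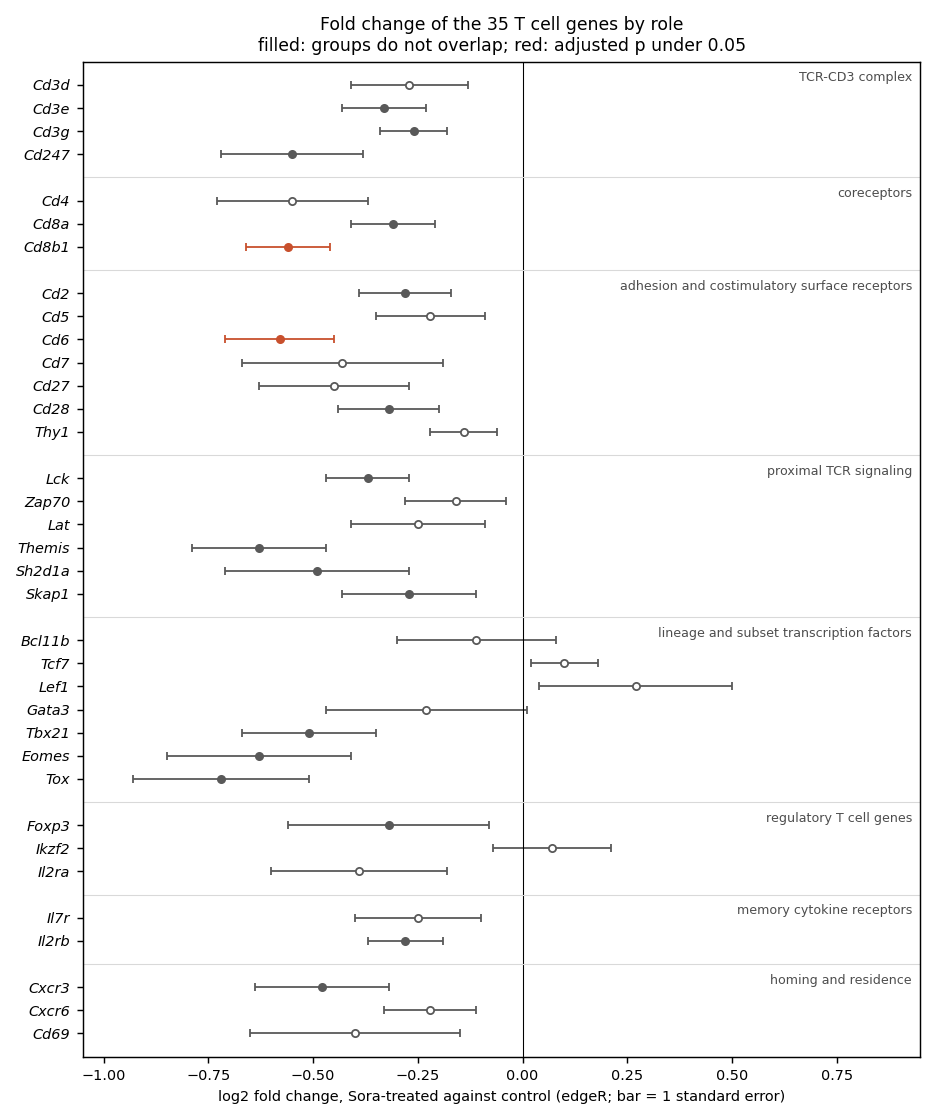
Log2 fold change of each T cell gene, Sora-treated against control, with 1 standard error from edgeR as the bar and genes on the vertical axis grouped by role. Filled points are genes whose groups do not overlap, and the points of Cd8b1 (-0.56) and Cd6 (-0.58) are red because their adjusted p is under 0.05. Tcf7, Lef1, and Ikzf2 lie right of 0.

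The transcription factors held both the lowest and the highest fold changes of the list. Tox, a regulator of exhausted CD8+ T cells, measured 9.71, 10.4, and 13.9 CPM in control tumors 1, 3, and 4 and 8.56, 7.03, and 5.07 CPM in Sora-treated tumors 2, 3, and 4 (log2 fold change -0.72, SE 0.21, edgeR, adjusted p = 0.086). Eomes, a T-box factor of memory CD8+ T cells and NK cells, measured 6.10, 6.23, and 4.44 CPM in control and 3.87, 4.11, and 2.84 CPM in Sora-treated tumors (log2 fold change -0.63, edgeR, adjusted p = 0.16). Tbx21 encodes T-bet, the T-box factor of type 1 helper and effector CD8+ T cells, and measured 9.37, 8.99, and 7.64 CPM in control and 5.62, 5.89, and 6.70 CPM in Sora-treated tumors (log2 fold change -0.51, edgeR, adjusted p = 0.10). These 3 of the 7 factors had separate, lower groups, against 11.6% of all genes, and none passed the threshold in edgeR's test.
Tcf7 encodes TCF1, which maintains naive and stem-like T cells, and its CPM was 117, 113, and 137 in control and 131, 129, and 135 in Sora-treated tumors (log2 fold change 0.10, edgeR, adjusted p = 0.59). All treated tumors lay within the range of the control tumors. Lef1, which acts beside TCF1, stood at 0.27 on the log2 scale (SE 0.23, edgeR, adjusted p = 0.61), with overlapping groups. Bcl11b, the factor that commits progenitors to the T lineage, and Gata3, the factor of type 2 helper T cells, also found in skin epithelium, overlapped at -0.11 and -0.23. Control tumor 1 was highest for both (16.8 and 11.3 CPM), and without it both log2 fold changes were above 0, at 0.12 and 0.11. This tumor also had the highest summed CPM of the keratinocyte genes (1007), whose part in both values was not tested.

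None of the 3 Treg cell genes passed the test, and their summed CPM was 18.6 to 22.4 in control and 18.2 to 18.8 in Sora-treated tumors. Foxp3, the lineage factor of Treg cells, measured 2.62, 2.58, and 2.30 CPM in control tumors 1, 3, and 4 and 2.14, 1.96, and 1.90 CPM in Sora-treated tumors 2, 3, and 4. The groups were separate and lower after Sora, but the log2 difference of -0.32 (SE 0.24) did not pass the threshold (edgeR, adjusted p = 0.56). These levels rest on 63 to 84 reads per tumor, and the SD of 0.171 CPM in control and 0.124 CPM in Sora-treated tumors lay below the counting error of 0.273 and 0.248 CPM. Il2ra, which encodes CD25 of Treg and activated T cells, overlapped between the groups (log2 fold change -0.39, edgeR, adjusted p = 0.37). Ikzf2, which encodes Helios, was nearly level, from 9.83 ± 1.35 to 10.3 ± 0.966 CPM (mean ± SD over 3 tumors, log2 fold change 0.07, edgeR, adjusted p = 0.85).

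Il2rb, the shared receptor chain for IL-2 and IL-15 on memory CD8+ T cells and NK cells, measured 93.2, 84.6, and 79.5 CPM in control and 69.2, 77.5, and 65.2 CPM in Sora-treated tumors (log2 fold change -0.28, edgeR, adjusted p = 0.12). The groups were separate, with control tumor 4 and Sora-treated tumor 3 the closest. Il7r, the IL-7 receptor of naive and memory T cells, measured 27.6, 27.3, and 18.2 CPM in control and 18.6, 20.8, and 21.9 CPM in Sora-treated tumors, and control tumor 4 lay below all of the treated tumors (log2 fold change -0.25, edgeR, adjusted p = 0.43). Cxcr3, the receptor through which CXCL9 and CXCL10 draw activated T cells, measured 14.4, 11.4, and 11.01 CPM in control and 7.54, 10.7, and 8.21 CPM in Sora-treated tumors (log2 fold change -0.48, edgeR, adjusted p = 0.16), with separate groups. Cxcr6, a receptor of tissue-resident T cells, and Cd69, an early activation and residence marker, overlapped (log2 fold changes -0.22 and -0.40, edgeR, adjusted p = 0.33 and 0.46).

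Levels of different genes were compared with FPKM, the value per length of the gene. Thy1 had the highest mean over the 6 tumors (115 FPKM), followed by Cd3g (34.7), Cxcr6 (19.6), Cd8a (19.2), Il2rb (17.3), and Cd3e (17.2 FPKM). Foxp3 (0.573), Lef1 (0.721), Ikzf2 (0.941), and Bcl11b (0.967 FPKM) had the lowest, and the other 31 genes were over 1 FPKM on average. The defining T cell markers Cd3e, Cd3d (12.3), Cd3g, and Cd8a were thus present in all tumors, with Cd4 (5.73 FPKM) lower than Cd8a.

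To ask whether the makeup of the T cell signal differed, the reads of a subset gene were divided by those of another T cell gene within each tumor, which cancels the scaling of the library. For Foxp3 to Cd3e, control tumors 1, 3, and 4 had log2 ratios of -3.49, -3.37, and -3.73, and Sora-treated tumors 2, 3, and 4 had -3.52, -3.62, and -3.39. The groups overlapped, and the means differed by 0.02 (exact permutation test, two-sided, p = 1). For Foxp3 to Cd4 the means were -3.20 ± 0.49 in control and -2.99 ± 0.27 in Sora-treated tumors (mean ± SD, 3 tumors each, exact permutation test, p = 0.7). The log2 ratio of Cd4 to Cd8a differed by -0.20 (exact permutation test, p = 0.6), and that of Cd8a to Cd3e by 0.02 (exact permutation test, p = 0.9). The ratio of Cd8b1 to Cd8a, the chains of the CD8 heterodimer, was close to constant in control tumors, at log2 values of -1.19, -1.16, and -1.24. It was lower in Sora-treated tumors 2 and 3 (-1.48 and -1.62) but not in Sora-treated tumor 4 (-1.21), which lay among the control tumors (difference -0.24, exact permutation test, p = 0.2). Adjusted over the 5 ratios every p was 1, and 3 tumors against 3 allow no p under 0.1, so a shift in makeup could not have passed the threshold with these tumors.

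**Figure D3:**
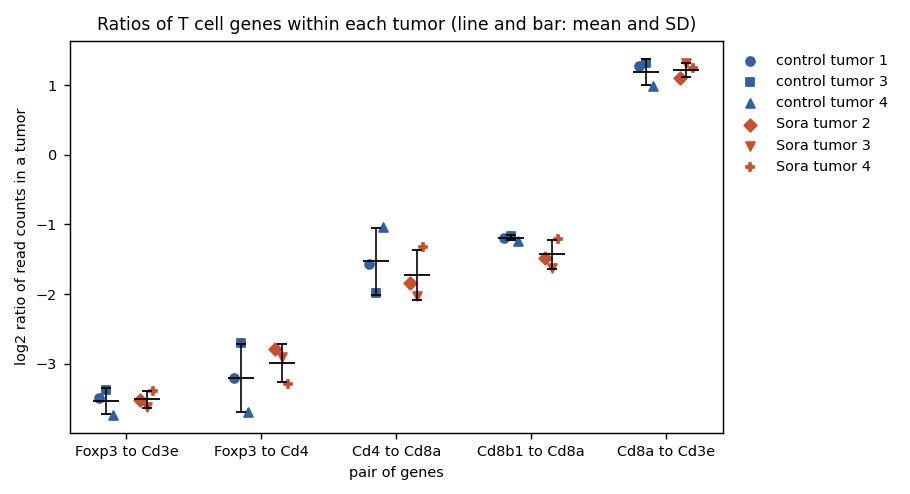
Log2 ratio of the read counts of 2 T cell genes within each tumor (vertical axis) for 5 gene pairs (horizontal axis), with the mean and SD of each group as a line and bar. The groups overlap in all 5 pairs, and in Cd8b1 to Cd8a Sora-treated tumors 2 and 3 lie below the control tumors.

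Genes that act with the list were taken from other lists of the TCR pathway and T cell migration. Over all genes tested, to be read beside each of these lists, 1.34% were called lower, 1.94% were called higher, and 50.1% had a log2 fold change under 0. Of 19 genes that relay the TCR signal, Rasgrp1 and Fyn fell, 17 had a log2 fold change under 0, and the median was -0.25. Rasgrp1, the exchange factor that activates RAS downstream of the TCR, fell from 42.04 ± 5.23 to 28.6 ± 2.42 CPM (mean ± SD over 3 tumors, log2 fold change -0.56, edgeR, adjusted p = 0.023). Fyn, a kinase related to LCK, fell from 50.4 ± 2.46 to 37.9 ± 4.18 CPM (mean ± SD over 3 tumors, log2 fold change -0.41, edgeR, adjusted p = 0.04). Both calls were lost without control tumor 1 (edgeR, adjusted p = 0.078 for Rasgrp1 and 0.13 for Fyn), control tumor 4 (0.077 and 0.073), Sora-treated tumor 2 (0.059 and 0.14), or Sora-treated tumor 4 (0.12 and 0.18), and that of Fyn also without control tumor 3 (0.09). Of 11 genes that restrain TCR signaling, 10 had a log2 fold change under 0 (median -0.20), and the smallest p was that of Ptpn22, a phosphatase that acts on LCK and ZAP70 (log2 fold change -0.42, edgeR, adjusted p = 0.06).
Of 10 trafficking receptors, 7 were under 0 (median -0.21), and S1pr1, which guides T cells out of lymphoid tissue, had the smallest p (log2 fold change -0.40, edgeR, adjusted p = 0.061). Of 7 chemokines that attract T cells, 5 were under 0 (median -0.31). Cxcl10, a ligand of CXCR3, went from 132 ± 6.27 to 94.7 ± 18.1 CPM (mean ± SD over 3 tumors, log2 fold change -0.48, edgeR, adjusted p = 0.058). Ccl21a, a ligand of CCR7 named here after its values were seen, differed in the other direction, at 6.60, 5.002, and 6.52 CPM in control and 10.4, 12.1, and 7.54 CPM in Sora-treated tumors (log2 fold change 0.73, edgeR, adjusted p = 0.071), with separate groups. Of 14 further genes linked to Treg cells, 9 were under 0 (median -0.10), and Tigit, a receptor of Treg, activated T, and NK cells, rose from 44.1 ± 5.30 to 59.2 ± 2.13 CPM (mean ± SD over 3 tumors, log2 fold change 0.42, edgeR, adjusted p = 0.034). The call of Tigit was lost without control tumor 1 (0.12), control tumor 4 (0.10), Sora-treated tumor 2 (0.099), or Sora-treated tumor 4 (0.16), in edgeR's test. Tigit averaged 24.1 FPKM over the 6 tumors, above Cd3e (17.2 FPKM) and Foxp3 (0.573 FPKM), and which cells held this RNA was not tested. Of 14 helper subset genes, 10 were under 0 (median -0.24), and Bcl6, the factor of follicular helper T cells, had the smallest p (log2 fold change 0.38, edgeR, adjusted p = 0.057). Cxcr5 and Il21 of the same list, named here after their values were seen, differed in the other direction. Their log2 fold changes were -1.25 and -0.23 (edgeR, adjusted p = 0.2 and 0.85), on 4 to 20 and 9 to 26 reads per tumor. The 7 constant segments of the TCR that were looked for were not found by symbol, so they could not be analysed here.

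Lists of other cells were read beside the T cell genes, since some of these cells hold the same transcripts. All 10 pan-leukocyte genes had a log2 fold change under 0, with a median of -0.26 and separate, lower groups in 5 (50%, against 11.6% of all genes), and their summed CPM was 1454 to 1624 in control and 1265 to 1394 in Sora-treated tumors. All 9 macrophage genes were under 0 (median -0.31, separate, lower groups in 5 against the same background, summed CPM 1799 to 2156 against 1503 to 1762), with Mertk, a receptor for uptake of dead cells, called lower (log2 fold change -0.45, edgeR, adjusted p = 0.031). In edgeR's test this call was kept only without Sora-treated tumor 3 (0.0042) and lost without each other tumor (0.066 to 0.16). The median of the T cell list (-0.32) thus lay beside that of macrophages, and the difference between the lists was not tested.
NK cells share Il2rb, Eomes, Tbx21, and Cd7 with T cells. Their 8 genes had a median of -0.15, and their summed CPM was 39.6 to 51.6 in control and 37.6 to 40.5 in Sora-treated tumors. The medians were -0.18 for 7 B cell genes (33.5 to 38.2 against 27.4 to 30.2 CPM, with no reads of the complement receptor gene Cr2 in the 5 tumors with deposited counts) and -0.17 for 5 genes of CD8a+ dendritic cells (176 to 220 against 174 to 231 CPM). Most of the dendritic cell sum was Irf8, which other leukocytes also express (158 against 170 CPM on average, log2 fold change 0.11), whereas the other 4 genes had log2 fold changes of -0.52 to -0.06, with Clec9a at 6.95 against 4.85 CPM, Batf3 at 6.51 against 5.74 CPM, and Xcr1 at 0.514 against 0.490 CPM. Fibroblasts, a source of Thy1, had a median of -0.22 over 7 genes (7591 to 7861 against 5373 to 6764 CPM), and endothelial cells -0.21 over 5 genes (198 to 240 against 156 to 217 CPM). Of the fibroblast genes, only Col1a1, Col1a2, and Col3a1 had separate, lower groups (log2 fold changes -0.42, -0.47, and -0.42). The others overlapped, namely Dcn (1607 against 1637 CPM on average, log2 fold change 0.03), Pdgfra (-0.03), Pdgfrb (-0.09), and Lum (-0.22).
The 6 neutrophil genes tested each had a log2 fold change above 0 (median 0.70, 69.9 to 79.0 against 102 to 157 CPM), and S100a9 was called higher (log2 fold change 1.21, edgeR, adjusted p = 0.042), a call kept only without Sora-treated tumor 3 (0.0049), with adjusted p from 0.055 to 0.15 without each other tumor. Keratinocyte genes, a source of Gata3, had a median of 0.48 over 7 genes with overlapping sums (292 to 1007 against 631 to 903 CPM). The 8 hepatoma genes had a median of 0.15 (3556 to 4775 against 3240 to 3642 CPM), with Hnf4a and Apoa1 called higher and Alb called lower in edgeR's test. The call of Hnf4a was lost without control tumor 4 (0.051) or Sora-treated tumor 4 (0.082), that of Apoa1 without each tumor but Sora-treated tumor 3, and that of Alb without control tumor 3 or 4 or Sora-treated tumor 2 or 4. In lists without a called gene, the smallest p belonged to Rac2 among pan-leukocyte genes (log2 fold change -0.29), Klra7 in NK cells (-0.70), Cd22 in B cells (-0.44), Clec9a in dendritic cells (-0.52), Col1a2 in fibroblasts (-0.47), Pecam1 in endothelial cells (-0.23), and Trp63 in keratinocytes (0.56), with edgeR adjusted p between 0.053 and 0.49. Ptprc, the gene of CD45, stands in both the signal relay and the pan-leukocyte list. The part of these cells in the T cell values was not tested.

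**Figure D4:**
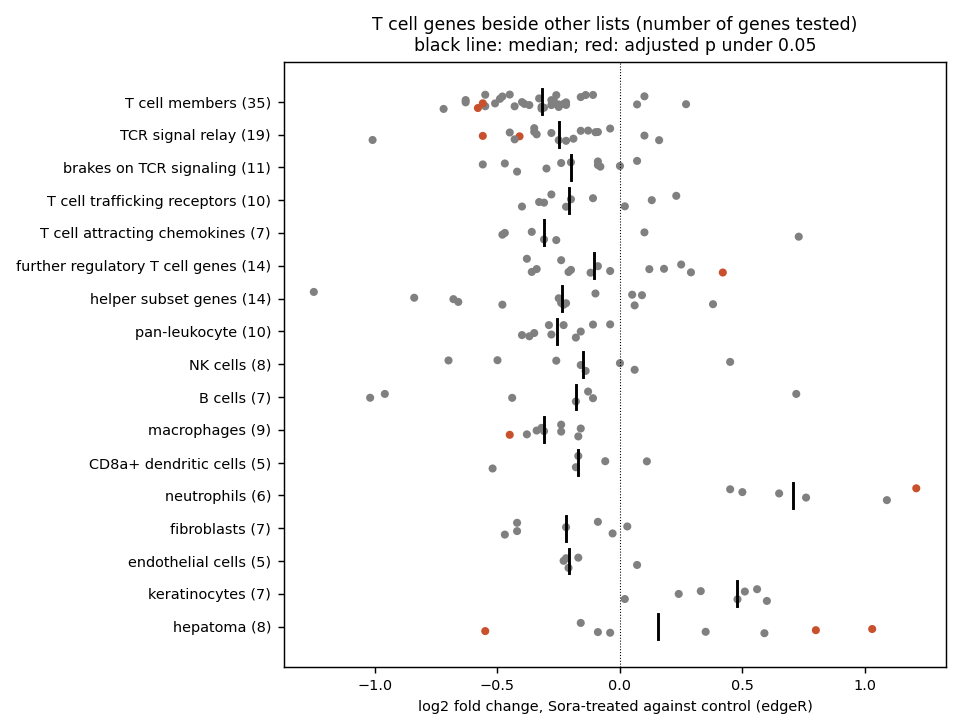
Log2 fold change of each gene tested (points, horizontal axis) in the T cell list and 16 other lists (vertical axis, number of genes tested in parentheses), with the median of each list as a black line and genes with an adjusted p under 0.05 in red. The T cell median is -0.32, that of pan-leukocyte genes -0.26, that of macrophages -0.31, and that of neutrophils 0.70.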

How the data were processed

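Gene expression of 6 Hepa1-6 tumors, 3 control and 3 Sora-treated, was measured by RNA-seq. The authors deposited counts, whole numbers of reads per gene without normalization, and FPKM, in which the authors divided counts by gene length and library total. The paper names Bowtie2 and GRCm38, whereas the submitters' processing notes name fastp, HISAT2, HTSeq, GRCm39, R 3.2.0, and DESeq2. The files hold no coordinates, so this difference was not settled, and strand use and annotation are not given in the sources used here.

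The count table used here holds 5 tumors. For Sora-treated tumor 4, FPKM values were turned back into counts with gene lengths implied by the other tumors, and 100% of 20951 values came within 0.001 of a whole number. Another 342 genes without reads in the other tumors had no implied length, and their 512 reads were left at 0 in this tumor. The same steps returned every count they reached in the other 5 tumors. Totals were 31073830 to 36205814 reads per tumor.

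The main test was the quasi-likelihood F test of edgeR 4.0.16 under R 4.3.3 after TMM scaling, on the 16513 genes that reached 10 counts in 3 or more tumors, and p-values were adjusted over all of them by the Benjamini-Hochberg method. The standard error is the log2 fold change divided by the square root of F. Ratios used counts plus 0.5. DESeq2 1.42.0, limma 3.58.1 on log2(FPKM + 1) and log2(FPKM + 0.1), other scalings and filters, a replicate block, and leaving out each tumor were alternatives. Scripts were tested on simulated data. The 35 genes and all lists were chosen with earlier results of these data known. Values in every tumor are given for genes with an adjusted p under 0.05, with separate groups, or leading their role. Other lists are represented by called genes, or by the gene with the smallest p, with some further genes added after their values were seen.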

Additional observations from a re-analysis of the deposited data

How the results depend on the processing

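The number of T cell genes called lower (2 of 35) moved to 7 in DESeq2 (background 3.72%), which has its own scaling, test, and filter, to 8 without a filter on low counts (2.28%), and to 18 at an unadjusted p (8.69%, chosen after seeing the data). With limma, which changes the measure, the test, and the filter together, it was 1 of 31 on log2(FPKM + 1) (0.504%), 0 of 31 on log2(FPKM + 0.1) (0.138%), and 0 of 35 on log2(FPKM + 1) without a filter (0%). In each of these 3 fits, 19 genes were lower at an unadjusted p under 0.05, against 9.61%, 9.48%, and 6.61% of all genes. The number called lower was 0 to 6 with 1 tumor left out. It was 0 without control tumor 1, Sora-treated tumor 2, or Sora-treated tumor 4 (0.362%, 0.209%, and 0.00613% of all genes), where 11, 15, and 15 genes were lower at an unadjusted p (6.49%, 6.26%, and 5.8% of all genes), 1 without control tumor 4 (0.362%), 3 without control tumor 3 (Cd4, Cd8b1, and Cd6, 0.656%), and 6 without Sora-treated tumor 3 (3.5%). The cause was not tested. The fit without Sora-treated tumor 4 rests on deposited counts alone. Other scalings and the filter of 10 counts in every tumor left it at 2 (1.31% to 1.51%). No gene was called higher in any of these settings. The median log2 fold change stayed between -0.37 and -0.25, and the number of genes with separate groups between 18 and 24 of 35, with each tumor left out (background 14.8% to 20.3%, a count added after seeing the data).

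The groups share the replicate numbers 3 and 4, but deviations of same-numbered tumors did not correlate (r = -0.0326 and -0.0736 over genes), so the numbers were not taken as pairs. With the replicate block, the fold change rests on tumors 3 and 4 alone, since numbers 1 and 2 each occur in 1 group. In this fit, 0 genes were called lower (0.273% of all genes) and 6 were lower at an unadjusted p (4.1% of all genes). The median was -0.25, Bcl11b turned to 0.19, and Tox was at -1.01 (edgeR, adjusted p = 0.11), past 2-fold.

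Among single genes, 482 of 517 values under alternatives kept their direction and call, 14 lost and 16 gained a call, and 5 changed direction. Most of the values that were kept belong to genes without a call in the main fit, which had none to lose. All 14 losses fell on the 2 called genes. Cd6 lost its call in 8 alternatives and kept it in 7, and Cd8b1 lost it in 6 and kept it in 9. With 1 tumor left out, the log2 fold change ranged from -0.28 to 0.12 for Bcl11b, from -0.41 to 0.11 for Gata3, and from -0.04 to 0.15 for Ikzf2. Differences in log2 ratio ranged from -0.08 to 0.10 for Foxp3 to Cd3e, from -0.04 to 0.45 for Foxp3 to Cd4, from -0.43 to 0.05 for Cd4 to Cd8a, and from -0.09 to 0.08 for Cd8a to Cd3e, whereas Cd8b1 to Cd8a stayed between -0.35 and -0.15. Counting error limits Foxp3 (63 to 84 reads per tumor), Lef1 (80 to 136), Sh2d1a (83 to 146), and Cd69 (72 to 149) most.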
